A study of Mus musculus with 16 samples.

Results

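*Smad6*, *Smad7*, *Ski*, *Skil*, *Tgfbi*, *Pmepa1*, *Bambi*, and *Tgif1* were grouped as TGF-β feedback and direct response genes. Most of their products damp TGF-β or BMP signals. They were taken by symbol from both deposited tables. All 8 were found, each under 1 Ensembl identifier, among 29629 genes counted in single cells and 47729 genes counted in tendon, and all 8 passed the filter on low counts in every comparison below.

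The single cells came from *ScxGFP* iPSCs, a line of 1 clone reprogrammed from embryonic fibroblasts of mice with a GFP transgene under *Scx* regulatory sequence. T0 cells were mesodermal cells induced from the iPSCs and not treated with TGF-β2. T3, T6, and T9 cells had been kept for 3, 6, and 9 days with 10 ng/ml TGF-β2. Per the study's methods, serum was reduced on the day before TGF-β2 was added, and only the treated cultures had a collagenase step before trypsin. Live single cells were sorted into 384-well plates, 3 plates per time point, and 4594 of 4608 wells with 200 or more genes were used. No plate was kept for the same time without TGF-β2, so time in culture, dissociation, and treatment cannot be told apart. The tendon samples were Achilles tendons of 2-week-old mice, 2 wild type (Wt) and 2 *Scx* knockout littermates (homoKO). The labels do not say which part of *Scx* the knockout allele lacks, how the plates relate to separate cultures, or whether a tendon sample pooled animals. The p-values therefore measure the spread between these samples, which may be technical.

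TGF-β binds a receptor pair that phosphorylates Smad2 and Smad3, which join Smad4 and act on genes in the nucleus. Smad7 and Smad6 are inhibitory Smads that act at the receptors, Smad6 mainly on BMP signals, and Bambi is a decoy receptor without a kinase. Pmepa1 holds receptor-activated Smads away from the receptor, while Ski, Skil (SnoN), and Tgif1 are nuclear corepressors that bind Smads. Tgfbi is a secreted matrix protein that binds collagen and integrins, and its name comes from its induction by TGF-β. In tendon, TGF-β is known for recruiting and keeping *Scx*-expressing progenitors.

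RefSeq promoter windows (GRCm38.p6, 250 bases before to 50 after a start) were held for *Smad6*, *Ski*, *Tgfbi*, and *Tgif1*, the last with 5 starts. *Smad7*, *Skil*, *Pmepa1*, and *Bambi* had no entry. Each window was searched on both strands for GTCTAGAC, a palindromic Smad-binding element, CAGAC, a shorter Smad-binding sequence, the GC-rich Smad-binding sequence GGCGCC, and the AP-1 site TGACTCA. The *Smad6* sequence shown (chr9:64022040-64022103, minus strand) carries GTCTAGAC across its start site, from 4 bases upstream, and the *Tgfbi* sequence (chr13:56609482-56609541, plus strand) carries GGCGCC 77 bases upstream. Capitals mark the motif, and in *Tgfbi* also CAGAC in reverse, 85 bases upstream. Distances are from the RefSeq start, which for *Tgfbi* and *Ski* lies inside the gene span given below.
Smad6: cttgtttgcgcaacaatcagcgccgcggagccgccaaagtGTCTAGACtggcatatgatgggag
Tgfbi: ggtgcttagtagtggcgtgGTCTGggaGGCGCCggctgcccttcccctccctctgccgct
Of 32851 windows of this length, 0.213% held GTCTAGAC, 49.6% CAGAC, 11.9% GGCGCC, and 5.20% TGACTCA. The *Ski* window also held GGCGCC, 220 bases upstream. CAGAC was in 3 of the 5 *Tgif1* windows, and TGACTCA was in none of the 8 windows searched.

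Plates held between 1921125 and 4657093 UMIs, each UMI standing for 1 captured mRNA molecule. Levels are given as normalised CPM, counts per 1000000 after TMM scaling of the plate totals in edgeR, which sets the plates to a common level for most genes. The TMM factors ran from 1.16 to 1.24 at T0 and from 0.738 to 1.05 at T9. In the study's mapping summary, 7 plates had more reads without an annotated feature than the other 5. They were all 3 T0 plates, T3 replicate 2, T6 replicates 1 and 3, and T9 replicate 3, so at T0 this split and the time point cannot be told apart. With plain library totals in place of TMM, the median log2 change of all genes was -0.21 between T3 and T0, -0.25 between T9 and T6, and -0.49 between T9 and T0. The higher and lower calls then went from 2279 and 2160 to 1524 and 2369 between T3 and T0, from 125 and 92 to 27 and 63 between T9 and T6, and from 3155 and 2895 to 1755 and 4468 between T9 and T0. *Scx* itself was at 8.09 ± 2.17 normalised CPM at T0 and 739 ± 113 at T3 (SD, n = 3).

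Between T0 and T3, *Pmepa1*, *Skil*, *Tgfbi*, and *Smad7* rose and *Smad6* fell, while *Ski*, *Bambi*, and *Tgif1* did not pass the test. With 5 of 8 called at an adjusted p below 0.05 by the quasi-likelihood test of edgeR, the background was 33.2% of 13372 genes. The median log2 change of the 8 genes was 0.58, beside 0.01 for all genes tested. No gene of the 8 was called between T6 and T3, where the background was 4.24%, and 2493 of all genes had an unadjusted p below 0.05. DESeq2 called none of the 8 there either. Between T9 and T6, *Skil* and *Pmepa1* fell, 2 of 8 beside a background of 1.62%. At T9, *Pmepa1*, *Ski*, and *Skil* were above T0 and *Smad6* below it, 4 of 8 beside 45.2%.

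**Figure D1:**
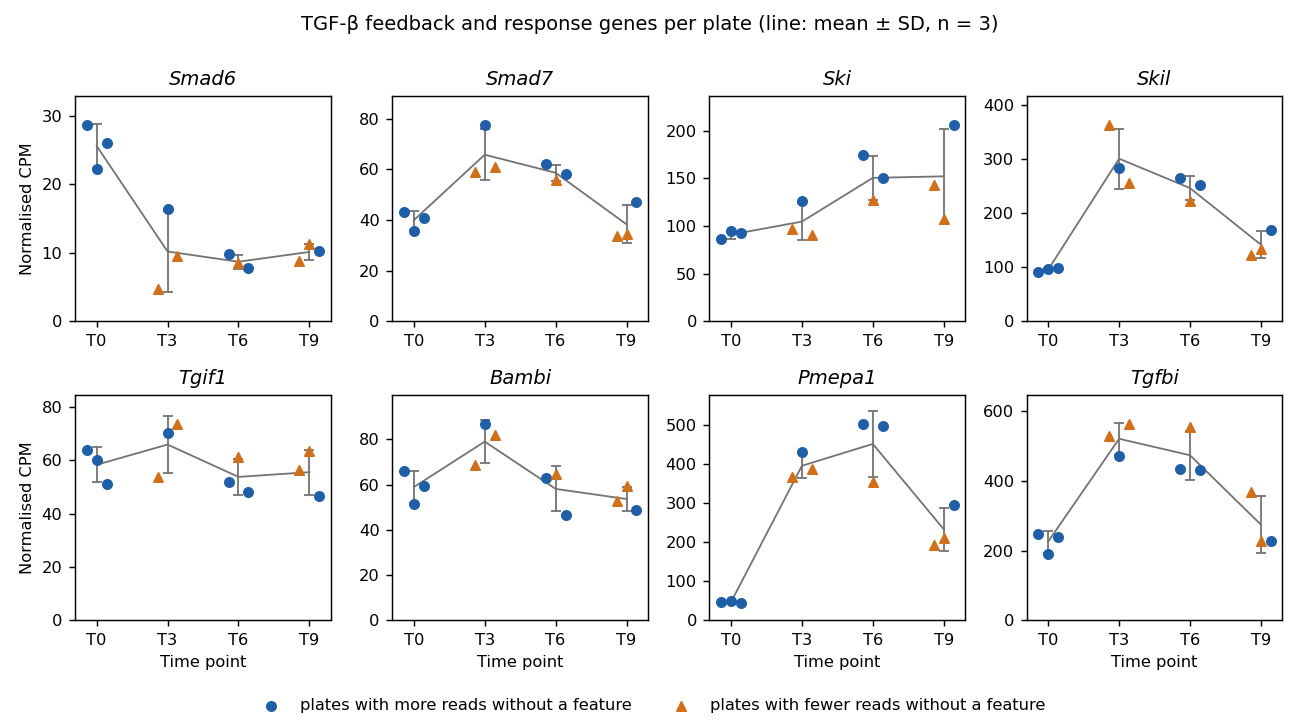
Normalised CPM (vertical axis) of the 8 genes by time point (horizontal axis), with a point per plate, shaped by the library split, and lines for the mean ± SD of 3 plates. *Pmepa1* stood between 43.3 and 49.4 on the T0 plates and between 192 and 501 on all later plates.

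*Pmepa1* (ENSMUSG00000038400, chr2:173224458-173276533, minus strand) changed most. On the T0 plates it was at 47.5, 49.4, and 43.3 normalised CPM, and on the T3 plates at 367, 431, and 387. The T6 plates were at 501, 353, and 498, and the T9 plates at 192, 211, and 295. No later plate overlapped T0, and all T9 plates lay below all T3 and T6 plates. The log2 fold change was 3.08 ± 0.22 (SE, adjusted p = 1.78e-07 by edgeR) for T3 against T0, and -0.95 ± 0.20 (adjusted p = 0.0312) for T9 against T6. At T9 it was still 2.32 ± 0.21 above T0 (adjusted p = 1.11e-06). The rise at T3 and the excess at T9 were called in all 16 alternatives each, the fall at T9 in 9 of 16. That fall was between -0.83 and -0.89, with an adjusted p from 0.135 to 0.179, when T6 replicate 1 or 3 or T9 replicate 1 or 2 was left out.

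*Skil* (ENSMUSG00000027660, chr3:31095058-31122577, plus strand) also rose at T3 and fell from T6 to T9, by less than *Pmepa1* at T3. It was at 91.6, 97.0, and 97.6 normalised CPM on the T0 plates and at 363, 284, and 255 on the T3 plates. T6 plates were at 264, 222, and 253, and T9 plates at 122, 133, and 169. The T9 plates lay between the T0 and the T6 plates without overlap. *Skil* rose by 1.65 ± 0.18 on the log2 scale at T3 (adjusted p = 1.53e-05 by edgeR, kept in 16 of 16 alternatives). It fell by 0.80 from T6 to T9 (SE 0.18, adjusted p = 0.0448), a call kept in 8 of 16 alternatives and lost (-0.70 to -0.76, adjusted p from 0.162 to 0.210) without the same 4 plates. Its excess of 0.57 ± 0.18 over T0 at T9 (adjusted p = 0.0202) was kept in 10 of 16. It was 0.42 (adjusted p = 0.0739) without T9 replicate 3 and between 0.54 and 0.59 (adjusted p from 0.0542 to 0.0619) without 1 of the T0 plates, and with library totals it was 0.12 (adjusted p = 0.712).

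*Tgfbi* (ENSMUSG00000035493, chr13:56609523-56639562, plus strand) had the highest mean normalised CPM of the 8 genes at every time point, although *Pmepa1* was above it on 2 of 3 T6 plates and on T9 replicate 3. The T0 plates held 248, 189.9, and 239 normalised CPM, the T3 plates 527, 472, and 562, and the T6 plates 433, 554, and 432. On the T9 plates it was at 369, 228, and 226, so that T9 replicates 2 and 3 lay within the range of T0. The rise at T3 was 1.20 ± 0.22 on the log2 scale (adjusted p = 0.000828 by edgeR, kept in 16 of 16 alternatives). T9 differed from T6 by -0.79 ± 0.22 (adjusted p = 0.0887), which passed with DESeq2 (adjusted p = 0.0138) and with the library split in the model (-0.89, adjusted p = 0.00293). The difference between T9 and T0 was 0.28 (95% interval -0.18 to 0.74).

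The inhibitory Smads moved apart. *Smad6* (ENSMUSG00000036867, chr9:63953076-64022059, minus strand), whose start site carries the GTCTAGAC shown above, had the lowest mean normalised CPM of the 8 at every time point. Its T0 plates were at 28.7, 22.2, and 25.98 normalised CPM and its T3 plates at 4.72, 16.4, and 9.46. T6 plates held 9.78, 8.54, and 7.75, and T9 plates 8.87, 11.3, and 10.2. No later plate reached the T0 range. The log2 change was -1.26 ± 0.32 at T3 (adjusted p = 0.00740 by edgeR) and -1.34 ± 0.32 at T9 against T0 (adjusted p = 0.00341). T3 replicate 2, on the T0 side of the library split, was the highest treated plate. Within the 7 plates of that side, which held no other T3 plate, the T3 change was -0.67. The T3 call was kept in 15 of 16 alternatives and the call at T9 against T0 in 16 of 16. The counts were small, 386 UMIs of *Smad6* over the T0 plates and 87 over the T3 plates.

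*Smad7* (ENSMUSG00000025880, chr18:75367529-75395935, plus strand) was at 43.0, 35.8, and 41.0 normalised CPM at T0 and at 59.1, 77.5, and 60.8 at T3. T6 plates were at 61.9, 55.9, and 58.0, and T9 plates at 33.6, 34.3, and 46.9. The T3 and T6 plates all lay above the T0 plates, and the T9 plates overlapped T0. The rise at T3 was 0.72 ± 0.18 (adjusted p = 0.00772 by edgeR) and was called in 15 of 16 alternatives, with library totals giving 0.52 (adjusted p = 0.199). T9 differed from T6 by -0.61 ± 0.18 (adjusted p = 0.119), which passed with the library split in the model (-0.52, adjusted p = 0.0418) and without T9 replicate 3 (-0.77, adjusted p = 0.0352). T9 differed from T0 by -0.06 (95% interval -0.45 to 0.34).

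Of the corepressors, *Ski* (ENSMUSG00000029050, chr4:155154075-155222592, minus strand) was called higher at T9 than at T0 and differed between the sides of the library split. It was at 86.2, 94.4, and 92.2 normalised CPM at T0 and at 96.9, 126, and 90.6 at T3. T6 plates were at 174, 127, and 150.0, and T9 plates at 143, 107, and 206. At T3, T6, and T9, the plates on the T0 side of the split were the highest of their time point. The T3 change of 0.21 ± 0.23 did not pass (adjusted p = 0.515 by edgeR), but with the split in the model it was 0.52 (adjusted p = 0.0124). T6 differed from T3 by 0.52 ± 0.23 (adjusted p = 0.226) and T9 from T6 by 0.02 ± 0.22 (adjusted p = 0.980). At T9 against T0 it was 0.74 ± 0.22 (adjusted p = 0.0149). Within the 7 plates of the T0 side, where T9 replicate 3 was the only T9 plate, it was 1.16. It was 0.47 (adjusted p = 0.0734) without T9 replicate 3, the highest plate, 0.71 (adjusted p = 0.0509) without T0 replicate 1, and 0.32 (adjusted p = 0.461) with library totals. *Tgif1* (ENSMUSG00000047407, chr17:70844205-70853546, minus strand) stayed between 46.6 and 73.5 on the 12 plates, with all time points overlapping. Its largest difference was -0.30 ± 0.19 between T6 and T3 (adjusted p = 0.417).

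*Bambi* (ENSMUSG00000024232, chr18:3507923-3516404, plus strand) was at 66.1, 51.6, and 59.2 normalised CPM at T0 and at 68.5, 86.8, and 81.9 at T3, where no plate overlapped T0. T6 plates were at 62.9, 64.8, and 46.7, and T9 plates at 52.8, 59.3, and 48.9. The T3 difference was 0.43 ± 0.18 (adjusted p = 0.0816 by edgeR, 95% interval 0.04 to 0.81). Within the 7 plates of the T0 side, where T3 replicate 2 was the only T3 plate, it was 0.53. The difference passed with only the plates compared (0.45, adjusted p = 0.0487 by edgeR) and did not with DESeq2 (0.43, adjusted p = 0.0658). With library totals, *Bambi* and *Tgif1* were called lower at T9 than at T0 (-0.63, adjusted p = 0.0366, and -0.58, adjusted p = 0.0398), close to the shift of the median gene on that scale.

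**Figure D2:**
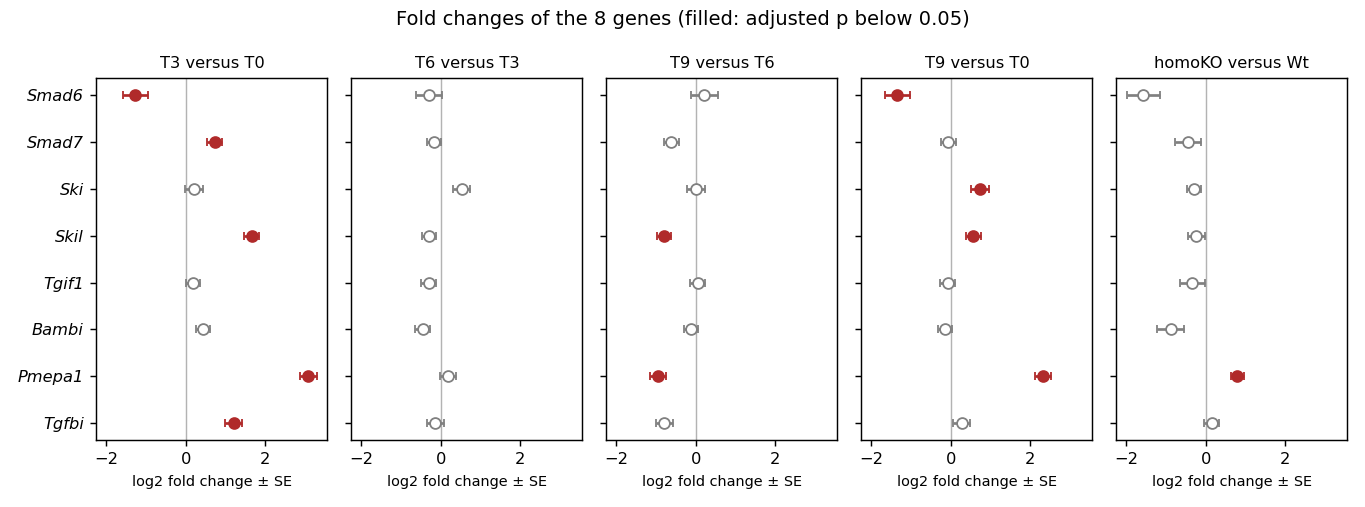
Log2 fold changes (horizontal axis) with their SE for the 8 genes (vertical axis) in the 4 time comparisons (12 plates) and in knockout against wild-type tendon (4 samples). Filled points passed an adjusted p of 0.05, and the largest value is *Pmepa1* at T3 against T0, 3.08.

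In order of level at T0, *Tgfbi* led, followed by *Skil* and *Ski*, whose plates overlapped, then *Bambi* and *Tgif1*, which also overlapped, and then *Pmepa1*, *Smad7*, and *Smad6*, each below the one before without overlap. UMIs count a captured molecule once, but whether the genes differed in capture or in the assignment of reads was not tested, so this is an order of counts. At T3, *Pmepa1* had moved from the sixth place to the second, below *Tgfbi* and above *Skil* without overlap. At T6, *Pmepa1* and *Tgfbi* overlapped, and at T9 each of *Tgfbi*, *Pmepa1*, *Ski*, and *Skil* overlapped its neighbour in the order. *Smad6* was last at all 4 time points.

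The share of cells with at least 1 UMI was taken after thinning to 3000 UMIs, so that depth was equal. Cells with fewer UMIs were left out, which kept between 322 and 375 cells per plate, the fewest on T3 replicate 1. *Pmepa1* was found in 12.4% ± 1.57 of T0 cells, 57.9% ± 12.002 of T3 cells, 66.5% ± 14.6 of T6 cells, and 39.0% ± 11.7 of T9 cells (SD, n = 3 plates). *Skil* went from 25.6% ± 0.33 at T0 to 46.7% ± 5.67, 49.1% ± 10.3, and 27.3% ± 7.64 at T3, T6, and T9. *Tgfbi* was found in 48.2% ± 4.87, 64.9% ± 8.82, 62.9% ± 1.42, and 40.6% ± 4.76 of the cells in the same order. Its share at T9 lay below T0 while its mean normalised CPM lay above, but thinned shares carry no TMM scaling. With library totals in place of TMM, *Tgfbi* at T9 differed from T0 by -0.23 (adjusted p = 0.302 by edgeR). *Smad6* was found in 7.20% ± 1.88 of T0 cells and in 2.16% ± 1.73 of T3 cells. A T0 cell held on average 1.61 of the 8 genes at this depth, a T3 cell 2.45, a T6 cell 2.60, and a T9 cell 1.69. Cells with 4 or more of them made up 4.68% of T0 cells, 19.7% of T3 cells, 24.5% of T6 cells, and 6.34% of T9 cells. At T3, T6, and T9, the plates on the T0 side of the library split had the highest number of the 8 genes per cell.

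**Figure D3:**
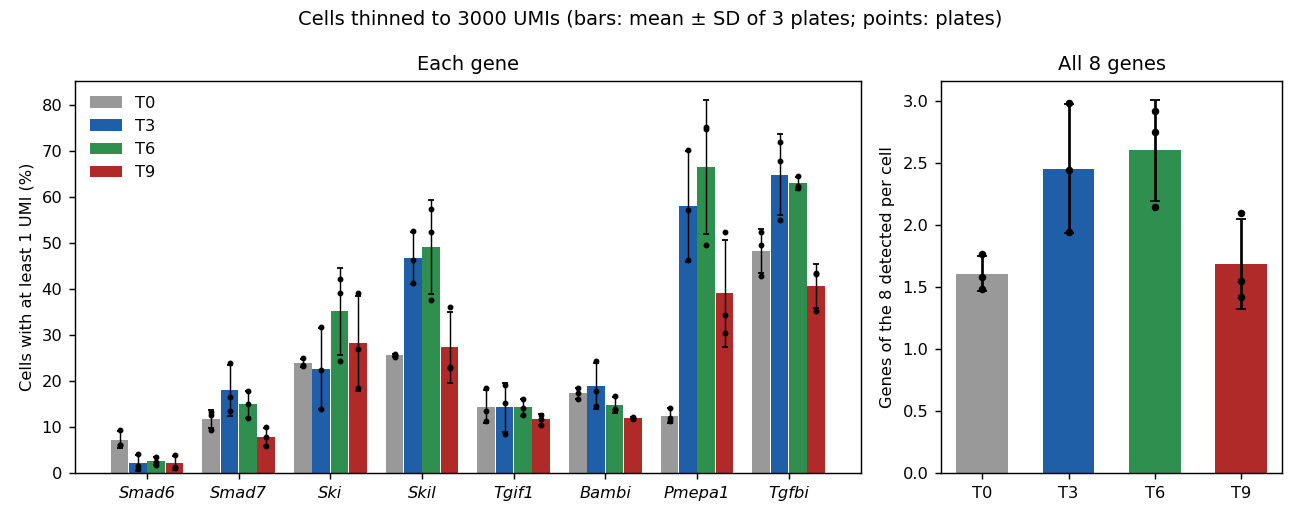
Left, share of cells with at least 1 UMI of each gene (vertical axis, %) by time point. Right, number of the 8 genes detected per cell. Bars are means ± SD of 3 plates, points are plates, and cells were thinned to 3000 UMIs, leaving out those with fewer. The mean number of genes per cell was 1.61, 2.45, 2.60, and 1.69 at T0, T3, T6, and T9.

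Cells with at least 1 UMI of *Scx* were compared with the other cells of the same plates at T3 and T9, with the plate as a block. At T9, *Tgfbi* was the member called, at 365, 235, and 287 CPM (of the UMIs of each class, without TMM) in *Scx*-positive cells and 181, 144, and 199 CPM in *Scx*-negative cells of replicates 1, 2, and 3. It was higher in *Scx*-positive cells on 3 of 3 plates, by 0.75 ± 0.10 on the log2 scale (adjusted p = 0.000583 by edgeR), and 1 of 8 called stood beside a background of 1.27%. Without T9 replicate 1 the difference was 0.61 (adjusted p = 0.0548). *Tgfbi* was not alone at T9. Of the other TGF-β response genes described below, 7 of 25 tested were also called higher, and of the core pathway 1 of 14, with 0 lower in either list. At T3, 2 of 23 other response genes were called higher and 1 lower. At T3 no member was called, beside a background of 0.426%, and 679 of 8917 genes had an unadjusted p below 0.05. *Pmepa1*, *Skil*, *Tgfbi*, and *Smad7* were each higher in the *Scx*-positive cells of 3 of 3 plates at T3, with *Pmepa1* at 0.50 ± 0.13 (adjusted p = 0.119). Without the filter on low counts, 2 of the 8 were called at T3, *Pmepa1* among them (0.59, adjusted p = 0.00400). *Scx*-positive cells held more UMIs on all 6 plates, with medians of 9704 against 8408 on T9 replicate 1. When cells were thinned to 3000 UMIs before *Scx* was called, *Tgfbi* at T9 was 0.73 (adjusted p = 1.54e-05). At T3 the same step gave 0.43 (adjusted p = 0.0941) for *Pmepa1*, 0.59 (adjusted p = 0.0182) for *Skil*, 0.15 (adjusted p = 0.816) for *Tgfbi*, and -0.05 (adjusted p = 0.988) for *Smad7*. Whether the *Tgfbi* difference itself differs between T3 and T9 was not tested. The 2 classes also differed in markers of other cell types. At T3, 4 of 5 tested pluripotent, 1 of 3 smooth muscle, and 1 of 1 skeletal muscle markers were called lower in *Scx*-positive cells, with 0 higher in each list. At T9, 1 of 6 tested pluripotent, 1 of 5 epithelial, and 2 of 13 parietal endoderm markers were called lower, with 0 higher in each list. In the other direction at T9, 2 of 6 smooth muscle, 1 of 2 cartilage, 1 of 2 adipocyte, and 6 of 9 tenocyte markers were called higher, with 0 lower in each list. The part of other cell types in the differences of the 8 genes was not tested.

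In the Achilles tendon, *Scx* was the check of the labels. It was lower in the homoKO samples, with 287 and 296 counts against 1151 and 996 in the Wt samples (log2 fold change -1.88 ± 0.17, adjusted p = 0.000429 by edgeR), but not at 0. The summed levels of the 10 tenocyte markers were 72478 and 83457 CPM against 165679 and 152621. Of the 10, 5 were called lower, among them *Scx*, the gene knocked out, where 3.84% of all genes were called. Other marker lists differed too. The 10 skeletal muscle markers summed to between 85771 and 89461 CPM in homoKO and between 38747 and 66036 in Wt, with 1 called higher. The 8 cartilage markers summed to between 293 and 328 CPM against between 1387 and 1549, with *Matn1* at 0 in both groups and 5 of 7 tested called lower. This list is not particular to cartilage. The paper describes its gene *Sox9* in progenitors of tenocytes too, and its gene *Chad* went from 0 UMIs at T0 to 121 at T6 in the culture. The 7 adipocyte markers summed to between 596 and 1025 CPM against between 1611 and 3961, with 4 called lower. The 10 endothelial markers summed to 810.0 and 658 CPM in homoKO against 1101 and 1067 in Wt, with *Tek* and *Kdr* called lower, and epithelial markers to between 14.0 and 20.4 against between 1.88 and 3.75, with 2 of 4 tested called higher. HomoKO replicate 1 stood apart by its nerve and Schwann markers, at 7429 CPM, where the 2 Wt samples were at 1178 and 1101 and homoKO replicate 2 at 305. In such bulk tissue, fewer cells of a type and less RNA per cell cannot be told apart, and the part of these markers in the results below was not tested.

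*Pmepa1* was the member called in the knockout, 1 of 8 beside a background of 3.84% of 14602 genes. It had 927 and 940 counts in the homoKO samples against 582 and 493 in the Wt samples. Per length, this was 15.2 and 16.2 counts per kb of exons per 1000000 against 10.6 and 8.19, with no overlap. The log2 fold change was 0.80 ± 0.16 (adjusted p = 0.0298 by edgeR). It was 0.88 (adjusted p = 0.0395) without homoKO replicate 1, 0.72 (adjusted p = 0.0667) without homoKO replicate 2, 0.67 (adjusted p = 0.141) without Wt replicate 2, and 0.75 (adjusted p = 0.0644) with library totals.

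*Smad6* was lower in both homoKO samples, with 47 and 28 counts against 129 and 91, at a log2 difference of -1.56 ± 0.41 (adjusted p = 0.0752 by edgeR, 95% interval -2.49 to -0.64). DESeq2 called it (-1.57, adjusted p = 0.0341). *Bambi* had 212 and 95 counts in homoKO against 326 and 227 in Wt, at -0.87 ± 0.34 (adjusted p = 0.217). *Bambi* was at -1.47 without homoKO replicate 1 and at -0.45 without homoKO replicate 2, each leaving a single homoKO sample. It was at -0.57 without Wt replicate 1 and at -1.12 without Wt replicate 2, each leaving a single Wt sample. *Smad7* had 102 counts in homoKO replicate 1 and 193 in homoKO replicate 2, and 208 and 198 in the Wt samples. Its difference of -0.44 ± 0.33 was -0.00 without homoKO replicate 1 and -1.06 without homoKO replicate 2 (adjusted p = 0.0819), so that a single library set its size. *Ski*, *Skil*, *Tgif1*, and *Tgfbi* differed by between -0.33 and 0.15 (adjusted p from 0.458 to 0.759), and the interval of *Tgfbi* ran from -0.29 to 0.58.

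**Figure D4:**
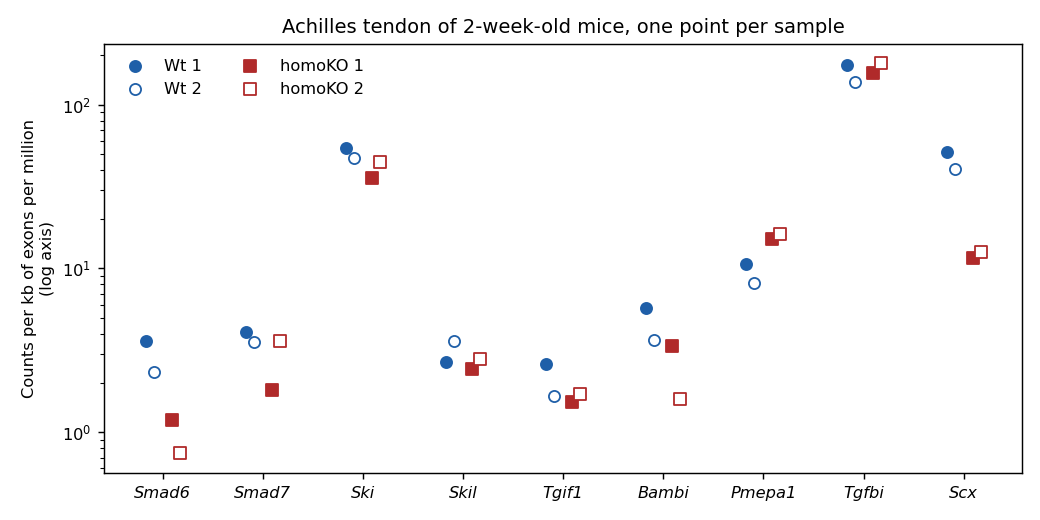
Counts per kb of exons per 1000000 (vertical log axis) of the 8 genes and *Scx* in the Achilles tendon, a point per sample. *Pmepa1* was at 10.6 and 8.19 in Wt and 15.2 and 16.2 in homoKO, and *Scx* at 51.3 and 40.5 in Wt and 11.5 and 12.5 in homoKO.

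In Wt tendon, the order per length was *Tgfbi* at 156 ± 25.3 counts per kb of exons per 1000000 (SD, n = 2), *Ski* at 50.7 ± 4.70, and *Pmepa1* at 9.39 ± 1.70, each apart from the next. Below them, *Bambi*, *Smad7*, *Skil*, *Smad6*, and *Tgif1* lay between 4.70 and 2.13, each overlapping its neighbour. No exon of the 8 genes overlapped an exon of another gene in the GENCODE annotation of GRCm38.

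The ligands, receptors, and Smads upstream rose and fell unevenly at T3. Of 15 tested genes of the core pathway, 8 were higher at T3 than at T0 and 2 lower, with a median log2 change of 1.05, where 33.2% of all genes were called in either direction. The ligands *Tgfb3* (3.63 ± 0.19, adjusted p = 1.68e-08 by edgeR) and *Tgfb2* (1.84 ± 0.28, adjusted p = 0.000221) rose, as did the type II receptor *Tgfbr2* (2.82 ± 0.21) and the latent TGF-β binding proteins *Ltbp3* (2.31 ± 0.34) and *Ltbp4* (2.15 ± 0.37). The type I receptor *Acvrl1* was called too, from 3 UMIs over the T0 plates to 23 over the T3 plates. The lower genes, named after their values were seen, were *Smad3* (-0.81 ± 0.21) and *Smad4* (-0.55 ± 0.19). *Tgfbr2* and the coreceptor *Tgfbr3* rose again from T3 to T6 (0.87 ± 0.19 and 1.62 ± 0.39), and none of the 15 was called between T6 and T9. At T9 against T0, 8 were higher and 4 lower, beside 45.2% of all genes called in either direction. In homoKO tendon, *Ltbp2* was higher (2.05 ± 0.38, adjusted p = 0.0197 by edgeR) and *Tgfbr3* lower (-0.80 ± 0.15, adjusted p = 0.0175), and the other 14 were not called.

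Other feedback regulators did not share 1 direction. Of 14 tested, 4 were higher at T3 and 2 lower (median 0.09), a share near the 33.2% of all genes. At T9 against T0, 4 were higher and 3 lower, near the 45.2% of all genes there. *Ldlrad4*, a membrane protein related to *Pmepa1*, went from 5 UMIs over the T0 plates to 171 over the T3 plates. *Fst*, the activin-binding follistatin, rose by 2.78 ± 0.38 (adjusted p = 9.25e-05 by edgeR), *Dab2*, an endocytic adaptor, by 1.82 ± 0.27, and *Wwp1*, a ubiquitin ligase, by 0.67 ± 0.21. The imprinted gene *Peg10* (-4.04 ± 0.34) and the deubiquitinase *Usp15* (-0.58 ± 0.21) fell. In homoKO tendon, *Fst* was the regulator called, at 0.76 ± 0.18 (adjusted p = 0.0456). Of 10 corepressor partners, none was higher at T3 and 4 were lower, again near the 33.2% of all genes at T3. These were the transcriptional coregulator *Cited1* (-3.30 ± 0.67), the scaffold *Sin3a* (-0.95 ± 0.16), *Ctbp2* (-0.73 ± 0.26), and *Ctbp1* (-0.47 ± 0.17). From T3 to T6 *Cited1* rose by 3.24 ± 0.68, and from T6 to T9 *Cited2*, named after its value was seen, rose by 0.71 ± 0.16. At T9 against T0, none was higher and 4 were lower, beside 45.2% of all genes, and none was called in tendon.

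Other TGF-β response genes were mostly higher at T9 than at T0. Of 27 tested, 14 were higher and 1 lower at T3, 10 higher and none lower at T6 against T3, and 3 higher and 1 lower at T9 against T6. The shares of all genes called in these comparisons were 33.2%, 4.24%, and 1.62%. At T9 against T0, 21 were higher and none lower, with a median of 2.55, beside 45.2% of all genes called in either direction. The collagen crosslinking enzyme *Lox* (7.78 ± 0.42, adjusted p = 2.02e-08 by edgeR), the matrix genes *Postn* (4.75 ± 0.26) and *Col1a1* (3.99 ± 0.42), the small GTPase *Rasl11b* (4.49 ± 0.20), and the transcription factor *Bhlhe40* (3.82 ± 0.23) led at T3. The lower gene, named after its value was seen, was the integrin *Itgav* (-1.18 ± 0.19). *Postn* rose again by 2.60 ± 0.22 from T3 to T6 and by 1.63 ± 0.21 from T6 to T9, and *Ccn2*, also named after its values were seen, by 0.86 ± 0.17 and 1.31 ± 0.17. The other calls from T6 to T9 were the transcription factors *Snai1* (0.85 ± 0.20) and *Runx1*, the lower gene (-1.27 ± 0.25). In homoKO tendon, the cell cycle inhibitor *Cdkn1a* (1.86 ± 0.15) and *Postn* (1.60 ± 0.28) were higher, the smooth muscle actin *Acta2* (-1.10 ± 0.25) and the lipid kinase *Sphk1* (-1.32 ± 0.25) were lower, and the other 25 of 29 were not called. Of all genes in tendon, 3.84% were called.

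Of 12 BMP response genes, the group in which *Smad6* is often placed, 3 were higher and 5 lower at T3, beside 33.2% of all genes. The homeobox genes *Msx1* (-4.10 ± 0.39, adjusted p = 3.51e-06 by edgeR) and *Msx2* (-2.82 ± 0.46) fell, as did the transcription factor *Atoh8* (-3.04 ± 0.62) and *Smad9* (-1.36 ± 0.48). The BMP antagonist *Nog* rose by 1.49 ± 0.27. From T3 to T6, *Msx1* fell again (-2.69 ± 0.60), and *Hey1* (-1.71 ± 0.37) and *Id2* (-0.83 ± 0.19) fell, both named after their values were seen. At T9 against T0, 3 were higher and 6 lower, beside 45.2% of all genes. None of 10 was called in tendon, where edgeR gave 2510 of all genes an unadjusted p below 0.05.

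Markers of the cell types moved beside these genes. The shares of all genes called were 33.2% at T3 against T0, 4.24% at T6 against T3, and 45.2% at T9 against T0. All 10 tenocyte markers were called higher at T3 and all 7 epithelial markers lower, from a summed level of between 431 and 563 CPM at T0 to between 19.3 and 58.2 CPM at T3. Pluripotent markers summed to between 371 and 780 CPM at T0 and between 105 and 156 CPM at T3, with 1 of 6 tested called lower. Their sums ran from 8.27 to 140 CPM on the T6 plates and from 0.332 to 296 CPM on the T9 plates. The 10 endothelial markers summed to between 16.0 and 23.6 CPM at T0, and between 57.6 and 136 CPM at T9. The 3 that were tested, *Kdr*, *Flt1*, and *Egfl7*, were called higher at T9, while *Pecam1* held 23 UMIs over the T0 plates and 14 over the T9 plates, *Emcn* 14 and 3, *Tie1* 6 and 0, and *Cdh5* 0 and 0. Parietal endoderm markers summed to between 1080 and 1252 CPM at T0 and between 6400 and 11726 CPM at T9, with 12 of 13 tested called higher. The 6 smooth muscle markers summed to between 317 and 657 CPM at T0 and between 2519 and 3788 CPM at T9, with 5 called higher at T6 against T3 and 6 at T9 against T0. Blood and immune markers stayed below 10 CPM on every plate. The part of a changing mix of cells in the levels of the 8 genes was not tested.

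Over the 12 plates, *Pmepa1* and *Skil* had a Pearson correlation of 0.90 in log2 normalised CPM, *Skil* and *Smad7* of 0.86, and *Skil* and *Tgfbi* of 0.84, while *Smad6* and *Pmepa1* had -0.82. These plates share the time points and the library split, so the values are a description. The tested genes most like each of the 8 were *Pdzd2* (0.991) and *Ahi1* (0.989) for *Pmepa1*, *Zcchc12* (0.9754) and *Mme* (0.972) for *Skil*, and *Calcrl* (0.942) and *Elk3* (0.931) for *Tgfbi*. For *Smad6* they were *Tcf7* (0.962) and *Fignl2* (0.959), and for *Smad7* *Tbx3os1* (0.954). For *Ski* they were *Cpne7* (0.974) and *Arfgef3* (0.963), for *Bambi* *Ccdc85a* (0.918) and *Oxnad1* (0.862), and for *Tgif1* *Traf4* (0.862) and *Tdp2* (0.860).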

How the data were processed

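For the CEL-Seq2 libraries, the authors used Trim Galore on the reads, HISAT2 against GRCm38, and featureCounts with UMI-tools to get UMI counts. The submitters' processing notes name UMI-tools 1.0.1 and HISAT2 2.2.1, and for tendon HISAT2 2.0.4 and featureCounts 1.5.0. Both deposited tables hold whole-number counts per gene (UMIs or reads), without normalization. The strand setting of the counting is not given in the sources used here. The list of well barcodes was not used, and all 12 plates share it, so a shared barcode marks a well position and not a shared cell. Wells were sorted singly, and no doublet caller was run.

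The 8 genes, the lists, and the comparisons were chosen with earlier results of these data known. UMIs were summed per plate over wells with 200 or more genes, and 3 identifiers outside Ensembl (0.0642% of UMIs) were left out. Symbols matched 29528 of 29629 and 47224 of 47729 identifiers. Sums were fitted over all 12 plates, and separately over the 4 tendon samples, with edgeR 4.0.16 in R 4.3.3 (filterByExpr, TMM, quasi-likelihood test), with genes called at 0.05 after Benjamini-Hochberg adjustment over all genes tested. SE is the log2 fold change over the square root of F, and 95% intervals use the degrees of freedom of the fit. Lists are described by counts and medians, with no set test. Named were the 8 genes, up to 6 called genes of a list with the largest change at T3, and for each of the 8 the 2 genes with the highest correlation over plates (log2 CPM, prior count 2). In the list text, a gene with 5 or fewer UMIs at T0 is given by its UMIs, since its fold change depends on the prior count. *Sphk1*, with 2 UMIs at T0, was called, and its change at T3 is not described. Some genes that the rule names are not reported here.

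In simulated data for T3 against T0, edgeR recovered 37% of genes changed 2-fold and 90% of those changed 3-fold, with 5 false calls among 13372 genes. For the tendon samples it recovered 42% and 82%, with 7 false calls among 14602 genes. Tendon libraries held between 11188270 and 12398560 counts. Replicates of a group differed by more than sampling noise, the chi-square statistic divided by the number of genes running from 3.18 to 57.6. Alternatives were DESeq2 1.42.0, its size factors, leaving the low counts in, a block for the replicate number, a covariate for the library split, the 7 plates on 1 side of it, only the plates compared, wells with 1000 or more genes, thinning to 3000 UMIs, leaving out each replicate, and, added after seeing the data, library totals in place of TMM. Shares were also taken at 5000 UMIs, without thinning, and at 2 or more UMIs. Thinning and figures used Python 3.11.15, numpy 2.4.6, and matplotlib 3.10.9.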

Additional observations from a re-analysis of the deposited data

How the results depend on the processing

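Of the values of the 8 genes under the alternatives, 618 kept their direction and their side of the threshold, 22 passed it newly, 31 no longer passed it, and 37 changed sign. For each result below that changed, the cause was not tested, except that fewer plates or samples entered where some were left out.

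Between T6 and T3, 567 genes were called. The count was 899 with DESeq2, 1010 without the filter on low counts, 1483 with the library split as a covariate, 264 with only the plates compared, 299 with library totals, and 291 to 890 with a replicate left out. Between T9 and T6, 217 genes and 2 of the 8 were called. DESeq2 gave 579 genes, no filter 684, the 7 plates 330, the covariate 813 with 4 of the 8, only the plates compared 45 with 0, library totals 90 with 1, and leaving out a replicate 35 to 852 with 0 to 3. Between T9 and T0, 4 of the 8 were called, and 2 to 4 with a replicate left out. In tendon, 560 genes and 1 of the 8 were called. No filter gave 1415 genes with 3 of the 8, DESeq2 2 of the 8, library totals 0, and leaving out a replicate 380 to 666 genes with 0 to 2. For *Scx*-positive cells at T3, 38 genes and 0 of the 8 were called. DESeq2 gave 22 genes, no filter 115 with 2 of the 8, *Scx* called after thinning 64 with 1, and leaving out a plate 0 to 51. At T9, 130 genes and 1 of the 8 were called, beside 59 with DESeq2, 261 with no filter, and 46 to 282 with 0 to 1 when a plate was left out.

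Whether the replicate numbers pair the plates could not be told. Same-numbered plates correlated in their deviations from the group means by between -0.563 and 0.515, and other plates by between -0.563 and 0.488. The library split ran through these values, from -0.205 to 0.515 on the same side and from -0.563 to 0.146 on different sides. In tendon the same numbers gave 0.0715 and different numbers -0.0715, mirror values that 2 samples a group force. With the replicate number as a block, 113 genes and 0 of the 8 were called between T9 and T6, and 1108 genes and 3 of the 8 in tendon (*Pmepa1*, *Smad6*, and *Bambi*). Without the block of the plate, 7 genes were called for *Scx* at T3, and 2 genes with 0 of the 8 at T9.

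Some values of the 8 genes changed sign, all small and none called. With library totals they were -0.032 for *Tgif1* at T3 against T0, -0.027 for *Smad6*, -0.19 for *Ski*, and -0.20 for *Tgif1* at T9 against T6, and -0.23 for *Tgfbi* at T9 against T0. With thinning to 3000 UMIs, *Smad6* was 0.072 at T6 against T3 and -0.056 at T9 against T6, *Ski* -0.0060 at T9 against T6, and *Tgif1* 0.12 at T9 against T0. *Ski* was -0.0063 without the filter at T9 against T6. With the covariate, *Tgif1* was -0.010 at T9 against T6 and *Smad7* 0.13 at T9 against T0. In the 7 plates these were -0.081 and 0.22, and *Tgfbi* was -0.014 at T9 against T0. With a replicate left out, *Smad6* ran from -0.58 to 0.21 at T6 against T3. At T9 against T6, *Ski* ran from -0.24 to 0.21 and *Tgif1* from -0.058 to 0.18. At T9 against T0, *Smad7* ran from -0.23 to 0.030 and *Tgif1* from -0.19 to 0.040. *Skil* ran from -0.47 to 0.055 in tendon. For *Scx* at T3, *Smad6* was 0.059 without the block, 0.021 without the filter, and from 0.16 to 0.26 without a plate. After thinning there, *Smad7* was -0.047, *Bambi* -0.0094, and *Tgif1* -0.065. For *Scx* at T9, *Smad7* ran from -0.13 to 0.28 and *Skil* from -0.053 to 0.15 without a plate, and *Bambi* was 0.20 after thinning. Depth limits *Smad6* in culture, with 8 UMIs on T3 replicate 1.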
